A study of Mus musculus with 2 samples.

Results

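The genes described here encode the proteins of the mitochondrial ribosome. They were taken as the mRNA rows of the deposited table whose symbol is Mrps or Mrpl followed by a number and at most 1 letter. This gave 76 genes of 44792 rows, 29 named for the small subunit (Mrps) and 47 for the large subunit (Mrpl). The libraries came from OCCM-30, an immortalized mouse line that resembles cementoblasts, which form the mineral layer on tooth roots. The 2 libraries are 1 of cells under compressive force and 1 of control cells, so no difference below has a replicate check and no p-value was computed. Both groups were of this single line, and how strong or how long the force was is not stated in the labels. The question put to these genes was whether small and large subunit transcripts differed in the same way between the compressed and the control library.

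Mitochondria translate only the few proteins encoded by their own genome, all of them parts of the respiratory chain or of ATP synthase. The ribosome that does so is assembled from ribosomal RNA made inside the organelle and from proteins encoded in the nucleus, made in the cytosol and imported. Some of its proteins take the place of a bacterial ribosomal protein and others sit where bacterial ribosomes have none. The symbols do not always follow the structure. The proteins of Mrps30 and Mrps18a sit in the large subunit, and that of Mrps36 is now known as a part of the oxoglutarate dehydrogenase complex, an enzyme of the citric acid cycle.

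Library totals were 24296292 counts for the compressed and 25049919 for the control library, with 21227 and 20945 genes detected. Of the cementoblast and osteoblast markers, Runx2, Sp7, Alpl, Spp1, Col1a1 and Col1a2 were detected in both libraries, while bone sialoprotein (Ibsp) had 0 counts in both and osteocalcin (Bglap) 12 against 11. Ibsp, a usual marker of the cell type named in the labels, was thus not detected at a floor of 3 counts. That floor equals 0.124 and 0.120 CPM, the count scaled by library size. The annotation and counting rules behind this row are not stated in the labels, so whether the transcript itself was absent is not known. Among markers of other cells, the 4 muscle genes and Ptprc, Adgre1 (listed as Emr1), Krt5, Epcam and Kdr had 0 counts in both libraries. Others reached a CPM of 1 in at least 1 library. They were Cd68 (150 compressed against 143 control counts), Vwf (84 against 70), Ctsk (50 against 62), Csf1r (39 against 44) and Pecam1 (21 against 32). Acp5, Krt14, Cdh1 and Cdh5 had reads but lay under that CPM. The summed level of 6 macrophage and osteoclast markers was 240 counts against 249, that of 4 epithelial markers 20 against 23 and that of 4 endothelial markers 105 against 104. These sums were similar in both libraries.

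Promoter sequence was available in RefSeq for 67 of the 76 genes, as 73 windows on GRCm38.p6 that run from 250 bases before to 50 bases after a transcript start. Sequences from 3 of them, without the part after the start, and 1 stretch between 2 genes are shown. They belong to the member with most counts, to 2 genes near the ends of the ranking in their subunit, and to a pair that faces away from one another. Capitals mark matches to an NRF1 motif (GCGCA and GCGC parted by 1 base of any kind) or to an ETS motif (CCGGAAG), read on either strand. NRF1 and the ETS factor GABP are nuclear factors known to bind many genes of mitochondrial proteins. The first is upstream of Mrpl12, the member with most counts, the second of Mrps26, which had one of the lowest ratios of the small subunit, and the third of Mrpl16, which had the highest ratio. They lie on the plus strand at chr11:120484387-120484636, chr2:130563507-130563756 and chr19:11770165-11770414. The last sequence is the 41 bases between the starts of Mrpl46 and Mrps11 at chr7:78783090-78783130, on the strand of Mrps11.
Mrpl12: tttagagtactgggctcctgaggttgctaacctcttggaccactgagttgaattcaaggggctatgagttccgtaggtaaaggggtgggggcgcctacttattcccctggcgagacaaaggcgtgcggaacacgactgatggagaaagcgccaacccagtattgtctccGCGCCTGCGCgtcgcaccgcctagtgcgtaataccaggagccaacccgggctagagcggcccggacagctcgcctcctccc
Mrps26: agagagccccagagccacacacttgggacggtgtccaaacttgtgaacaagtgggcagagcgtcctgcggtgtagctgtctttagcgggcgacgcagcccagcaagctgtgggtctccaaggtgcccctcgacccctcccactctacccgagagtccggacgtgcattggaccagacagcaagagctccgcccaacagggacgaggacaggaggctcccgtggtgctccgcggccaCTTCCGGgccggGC
Mrpl16: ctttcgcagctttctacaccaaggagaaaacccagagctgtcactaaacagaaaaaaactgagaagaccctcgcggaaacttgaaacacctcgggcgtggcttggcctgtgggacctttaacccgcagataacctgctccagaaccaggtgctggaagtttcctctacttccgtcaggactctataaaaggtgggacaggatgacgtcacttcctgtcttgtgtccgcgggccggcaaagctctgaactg
Mrpl46 to Mrps11: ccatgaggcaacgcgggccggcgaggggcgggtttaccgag

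The capitals at the end of the Mrps26 stretch begin an NRF1 match that runs past the transcript start, and those before it are an ETS match on the reverse strand. The Mrpl12 stretch holds an NRF1 match on the reverse strand that starts at base -81. The Mrpl16 window and the stretch between Mrpl46 and Mrps11 hold neither set of letters. Over all member windows, 16.4% held the NRF1 motif (12 of 73), against 4.60% of all 32851 RefSeq windows. The ETS motif was in 32.9% of member windows and 8.86% of all, and a YY1 motif (AANATGGC) in 27.4% and 6.05%. The motifs were searched on both strands over the full window. The windows of all genes were not matched to those of the members in expression or base composition, and the differences in share were not tested. No member held all 3, 11 held 2 kinds, 34 held 1 and 22 held none of them.

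Ratios of the compressed over the control library differed little with the ETS and YY1 letters and more with those of NRF1, which few genes held; none of these differences was tested. The median log2 ratio was -0.20 over the 24 genes with an ETS motif and -0.16 over the 43 without. It was -0.17 with and -0.14 without a YY1 motif, and -0.03 over the 12 genes with an NRF1 motif against -0.17 over the 55 without. Small subunit genes held the ETS motif in 11 of 26 cases and large subunit genes in 13 of 41, against 3 and 9 for NRF1 and 7 and 13 for YY1. A match is a run of letters and does not show binding.

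Transcripts of the mitochondrial ribosome were slightly less abundant in the compressed library, in both subunits. Of the 76 genes, 75 reached a CPM of 1 in at least 1 of the libraries, and 55 of these had a log2 ratio below 0 and 20 above. For 37 of the 75 (49.3%) the exact 95% counting interval of the ratio lay wholly below 1, against 30.8% of the 11757 mRNAs at the same minimum. For 4 (5.33%) it lay wholly above 1, against 28.1% of mRNAs. The median log2 ratio was -0.15 over the members and -0.01 over those mRNAs. At a CPM of at least 10, 36 of 70 members (51.4%) lay below and 4 (5.71%) above, against 36% and 29.3% of 9298 mRNAs.

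These differences were small for each gene. Among the 75 members above the CPM minimum, none reached a ratio of 2 or 0.5, the limits used for calling a gene, which 3.06% of mRNAs passed. None passed at a fold limit of 1.5 either, which 6.69% of mRNAs passed as higher and 2.73% as lower. The lowest and highest log2 ratios of these 75 were -0.54 and 0.30. The counting interval leaves out the spread between cultures, which 1 library per group cannot give. With intervals widened for an assumed coefficient of variation of 0.1 between cultures, 3 members (4%) remained below 1 and 0 above, against 5.58% and 9.18% of mRNAs. These 3 were Mrpl44, Mrpl46 and Mrpl50, and at that spread the share of members below 1 was no higher than that of mRNAs.

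**Figure D1:**
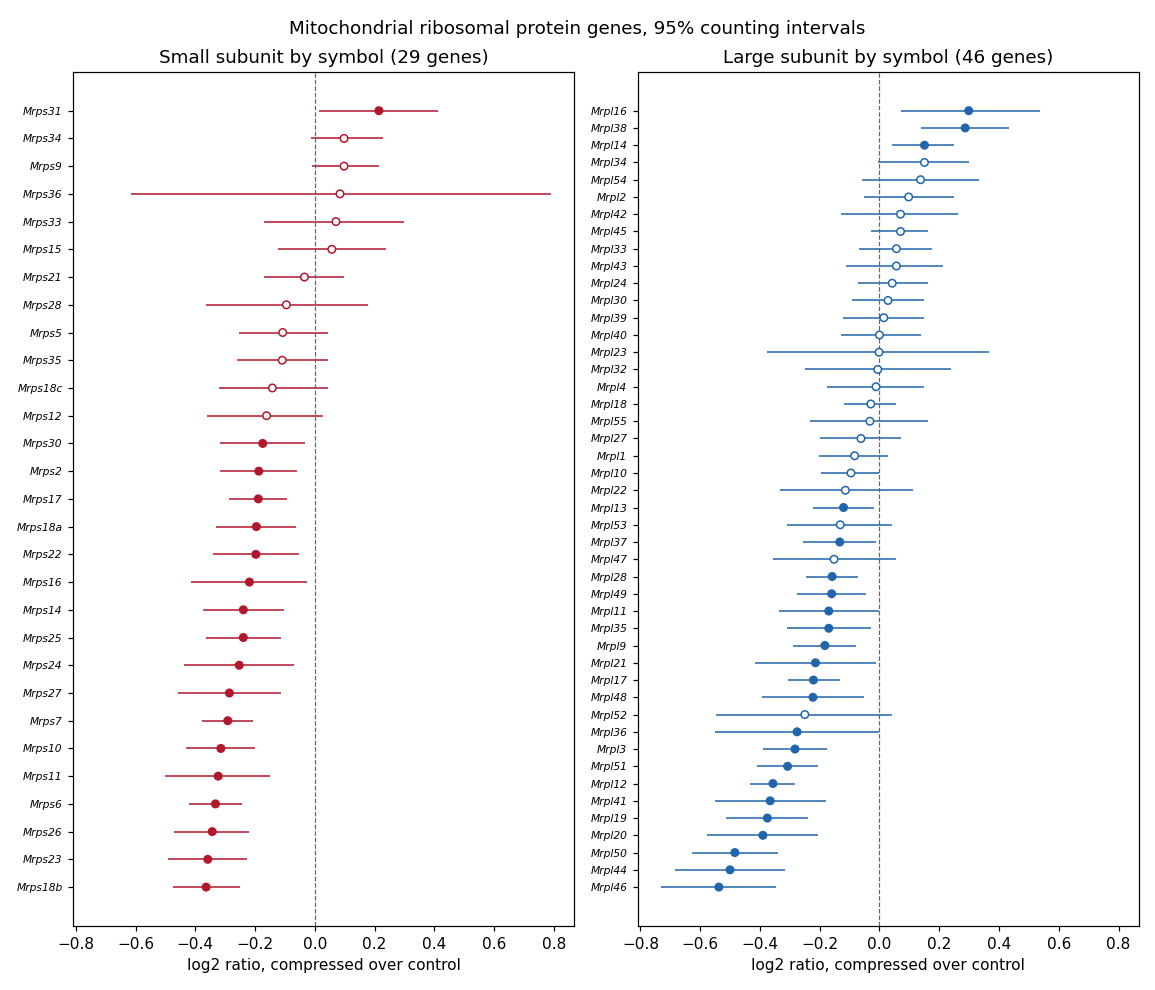
Each point is the log2 ratio of the compressed over the control library for 1 gene with a CPM of at least 1, with its exact 95% counting interval as a line, for 29 genes named Mrps (left) and 46 named Mrpl (right). Filled points have intervals that exclude a ratio of 1 (dashed line), and 37 of the filled points lie to the left of the line and 4 to the right.

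Small subunit genes had 27475 counts in the control and 23290 in the compressed library, a summed ratio of 0.875 (95% counting interval 0.860 to 0.890). Their median log2 ratio was -0.19, and 17 of 29 intervals (58.6%) lay below 1 and 1 above. Large subunit genes had 45181 control and 40266 compressed counts, a summed ratio of 0.920 (0.907 to 0.932). Their median was -0.12, with 20 of 46 intervals (43.5%) below 1 and 3 above. The small subunit median was lower by 0.07. The intervals of the summed ratios did not overlap for counting error, but the spread between cultures was not measured and the difference was not tested. It also depended on the set of members. The summed log2 ratios were -0.19 (small) and -0.12 (large) over all members. Without members that overlap another gene they were -0.15 and -0.14, and with mitochondrial ribosome proteins of other names -0.16 and -0.12.

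**Figure D2:**
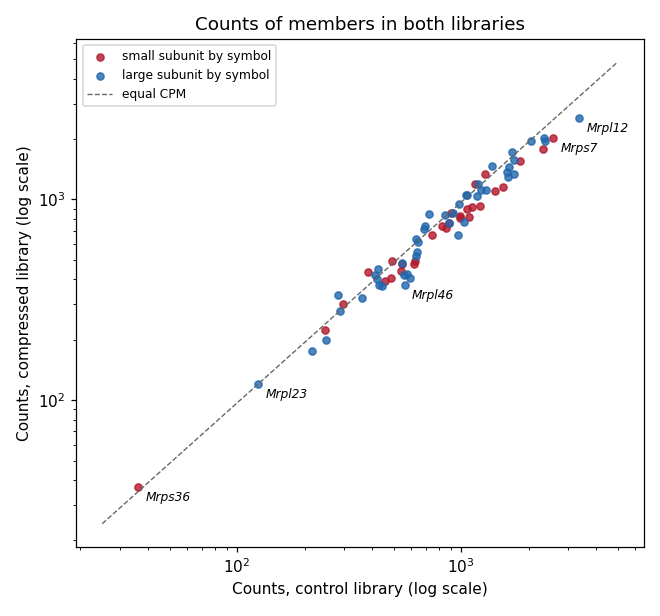
Counts of each gene in the control library (horizontal, log scale) and the compressed library (vertical, log scale), with small subunit genes in red and large subunit genes in blue; the dashed line marks equal CPM. Most points lie just under the line over a range from Mrps36 (36 control counts) to Mrpl12 (3349 control counts).

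Placing the proteins by structure in place of symbol left the picture as it was. With Mrps30 and Mrps18a in the large subunit and Mrps36 left out, the medians were -0.19 over 26 small and -0.13 over 48 large subunit genes. Mrps30 had 761 compressed and 886 control counts, a ratio of 0.886 (0.803 to 0.978). Mrps36 had 37 against 36 counts, a ratio of 1.06 (0.652 to 1.73). Its pseudogene rows Mrps36-ps1 and Mrps36-ps2 had 16 against 18 and 2 against 0 counts, and how reads that align to several copies were counted is not given, so its low level is uncertain.

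Proteins that take the place of a bacterial ribosomal protein and those that do not had close values. The latter are called mitochondrion-specific here, and they include Mrps18a and Mrps18b, which are related to bacterial S18 but sit at other sites. Of 44 genes of the first kind, 21 had intervals below 1 and 2 above, with a median log2 ratio of -0.15. Of 29 genes of the second kind, 16 lay below and 2 above, with a median of -0.17. Their standard deviations were 0.16 and 0.22, and the summed ratios were 0.904 (0.892 to 0.916) and 0.899 (0.883 to 0.916), with intervals that overlapped.

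In the small subunit, the 4 members with intervals farthest below 1 were Mrps18b, Mrps23, Mrps26 and Mrps6. Mrps18b had 1158 compressed against 1537 control counts and was 1.29 times lower (1.19 to 1.39). Mrps23, which has no bacterial counterpart, had 819 against 1084 counts and was 1.28 times lower (1.17 to 1.41). Mrps26, likewise without one, had 926 against 1213 counts and was 1.27 times lower (1.16 to 1.38). Mrps6, a relative of bacterial S6, had 1789 against 2326 counts and was 1.26 times lower (1.18 to 1.34). Its span overlaps the inositol transporter gene Slc5a3, which had 5559 against 6895 counts and a log2 ratio of -0.27, so the reads of this pair may not be separable. Mrps18b overlaps Gm16279 and Mrps23 overlaps Cuedc1, whose log2 ratio was -0.09.

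Further relatives of bacterial proteins in the small subunit followed over a range of values. Mrps7, which binds the ribosomal RNA of the head, had 2027 against 2561 counts, a ratio of 0.817 (0.770 to 0.866). Mrps10 had 1104 against 1417 counts and a ratio of 0.804, and Mrps11, which lines the mRNA exit, 479 against 619 and a ratio of 0.799 (0.707 to 0.901). Mrps12, the relative of the decoding protein S12, had 394 against 455 counts and a ratio of 0.894 whose interval of 0.779 to 1.02 included 1. Mrps2, Mrps14, Mrps16, Mrps17 and Mrps24, all of the same origin, had ratios from 0.839 to 0.878 with intervals below 1. The intervals of Mrps5, Mrps9, Mrps15, Mrps18c, Mrps21 and Mrps28 included 1, with ratios from 0.906 for Mrps18c to 1.07 for Mrps9.

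The other mitochondrion-specific small subunit genes fell on both sides of 1. Mrps27, a pentatricopeptide repeat protein, had 496 against 624 counts and a ratio of 0.820 (0.728 to 0.924). Mrps25 and Mrps22 had ratios of 0.847 and 0.872 with intervals below 1, while those of Mrps35 (0.927), Mrps33 (1.05) and Mrps34 (1.07) included 1. Mrps31 had 433 against 386 counts and was the single small subunit gene with an interval above 1, at 1.16 (1.01 to 1.33).

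A family of 3 genes encodes relatives of bacterial S18 that sit at different sites. Mrps18a, whose protein sits in the large subunit, had 832 against 984 counts and a ratio of 0.873 (0.795 to 0.958). Mrps18b, a small subunit protein on a site of its own, had the ratio of 0.777 given above as 1.29 times lower. Mrps18c, which takes the place of bacterial S18, had 476 against 542 counts and a ratio of 0.906 (0.800 to 1.03). The 3 intervals overlapped one another. Their control levels were 39.3, 61.3 and 21.6 CPM, which are not compared between genes because no transcript lengths were used here.

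In the large subunit, the lowest 3 ratios were those of Mrpl46, Mrpl44 and Mrpl50, which have no bacterial counterpart, followed by Mrpl20 and Mrpl19, which have one. Mrpl46 had 373 compressed against 559 control counts and was 1.45 times lower (1.27 to 1.66). Mrpl44, a protein with a ribonuclease III fold, had 405 against 591 counts and was 1.41 times lower (1.24 to 1.61). Its span overlaps Wdfy1, which had 707 against 852 counts. Mrpl50 had 669 against 966 counts and was 1.40 times lower (1.27 to 1.55). Mrpl41 had 419 against 557 counts and a ratio of 0.776, and Mrpl51 1343 against 1715 and a ratio of 0.808, both with intervals below 1.

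The stalk of the large subunit recruits the translation factors. Mrpl12, its repeated protein, which is also known to bind the mitochondrial RNA polymerase, had 2534 against 3349 counts and was 1.28 times lower (1.22 to 1.35). Mrpl10, which anchors Mrpl12, had 1565 against 1725 counts and a ratio of 0.936 whose interval included 1. Mrpl11, at the stalk base, had 549 against 637 counts and a ratio of 0.889 (0.792 to 0.998). Mrpl1, of the opposite stalk, had 1117 against 1221 and a ratio of 0.944 (0.870 to 1.02). The interval of Mrpl12 lay below that of Mrpl10, so these partner transcripts differed in ratio beyond counting error.

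Other relatives of bacterial proteins spanned a wider range. Mrpl20 and Mrpl19 had ratios of 0.763 and 0.771, and Mrpl3, which reaches toward the peptidyl transferase centre, had 1289 against 1618 counts and a ratio of 0.822 (0.763 to 0.885). Mrpl36, Mrpl17, Mrpl21, Mrpl9, Mrpl35, Mrpl28 and Mrpl13 had ratios from 0.826 to 0.920 with intervals below 1. Mrpl47, Mrpl22, Mrpl27, Mrpl18, Mrpl4, Mrpl32, Mrpl23, Mrpl30, Mrpl24, Mrpl33, Mrpl2 and Mrpl34 had ratios from 0.900 to 1.11 with intervals that included 1. Among these, Mrpl22, Mrpl23 and Mrpl24 encode proteins around the exit of the peptide tunnel, with ratios of 0.924, 0.999 and 1.03. Mrpl23 had only 120 against 124 counts, and its pseudogene row Mrpl23-ps1 had 10 against 1.

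The large subunit had 3 genes with intervals above 1. Mrpl16 had 336 against 282 counts, a ratio of 1.23 (1.05 to 1.45). Mrpl38 had 850 against 718 counts and a ratio of 1.22 (1.10 to 1.35). Mrpl14, known as a docking site of the assembly factor Malsu1, had 1468 against 1370 counts and a ratio of 1.11 (1.03 to 1.19). Its span overlaps Tmem63b, which had the same log2 ratio of 0.14. Malsu1 itself had 347 against 340 counts and a ratio of 1.05 (interval from 0.904).

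The remaining mitochondrion-specific large subunit genes had ratios from 0.841 to 1.10. Mrpl48, Mrpl49 and Mrpl37 had ratios of 0.857, 0.895 and 0.912 with intervals below 1. Mrpl52, Mrpl53, Mrpl40, Mrpl39, Mrpl43, Mrpl42, Mrpl54 and Mrpl45 had ratios from 0.841 to 1.10 with intervals that included 1. So did that of Mrpl55, left out of the split by origin, at a ratio of 0.978. Mrpl45, which attaches the ribosome to the inner membrane, had 1721 against 1693 counts and a ratio of 1.05 (0.980 to 1.12).

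One member was nearly without reads. Mrpl15, the relative of bacterial L15 on chromosome 1 from 4773198 to 4785750, had 0 compressed and 3 control counts, at or under the floor of 3 counts in both, so no ratio is given. The other 75 members had at least 1.44 CPM in both libraries, and 55 of them lay between 10 and 60 CPM in both. Its protein is a constituent of the large subunit, and the annotation and counting rules behind its row are not stated in the labels.

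Members are spread over 17 chromosomes, and some stand close to other genes. The genes Mrpl46 (chromosome 7, 78775341 to 78783089) and Mrps11 (78783131 to 78792988) face away from one another across the 41 bases printed above. They are the 1 pair of members within 1000 bases of each other, and the pair joins both subunits. Both had intervals below 1, with log2 ratios of -0.54 and -0.32. Another 15 members are known to face away from a protein-coding gene that is no member, across gaps of 20 to 891 bases. The orientation of a pair was not known where a gene had no promoter window, and such pairs were left out. They are close neighbours of Mrpl10, Mrpl13, Mrpl18, Mrpl38, Mrpl54 and Mrps34, of which Mrpl38 had an interval above 1. Of these 15 members 7 had intervals below 1 and 0 above, against 30.8% and 28.1% of all mRNAs, with a median log2 ratio of -0.16. Over all members above the CPM minimum the shares were 49.3% and 5.33% and the median was -0.15, so these 15 were close to the whole family. Of their 15 partners, 2 lay below and 2 above, both under those shares of all mRNAs, with a median of -0.02. The member had the lower ratio in 9 of the 15 pairs, and the difference between members and partners was not tested.

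Values of single pairs differed in some cases and not in others. Mrpl50 stands 92 bases from the zinc finger gene Zfp189, which had 359 against 343 counts and a ratio of 1.08 (0.929 to 1.26). Mrpl51 stands 99 bases from the condensin gene Ncapd2, with 6772 against 6299 counts and a ratio of 1.11 (1.07 to 1.15). Mrps12 and the mitochondrial seryl-tRNA synthetase gene Sars2 are 135 bases apart, and Sars2 had 346 against 356 counts and a ratio of 1.00 (0.862 to 1.17). The interval of Sars2 overlapped that of Mrps12. Mrpl30 and its partner Mitd1, 27 bases away, had log2 ratios of 0.03 and 0.02, while Hira, 112 bases from Mrpl40, had the lower value at -0.19 against 0.00. These pairs were chosen after their values were seen.

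Spans of 24 members overlap another RefSeq gene, and the strand setting of the counting is not given. Among the 51 members above the minimum without such an overlap, 23 (45.1%) had intervals below 1 and 3 above, and the median log2 ratio was -0.14. The members that overlap had a median of -0.17. The small subunit median without overlapping genes was -0.16 and the large -0.12, so the difference between the subunits narrowed to -0.04. The summed log2 ratios of the 2 subunits were then -0.15 (small) and -0.14 (large).

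Some mitochondrial ribosome proteins have symbols that do not begin with Mrps or Mrpl. Of 7 such genes, 5 had intervals below 1 (71.4%, against 30.8% of all mRNAs) and 1 above (14.3%, against 28.1%), with a median log2 ratio of -0.20. Chchd1 had 562 against 711 counts and a ratio of 0.816 (0.729 to 0.912). Ict1, which frees stalled peptides, had 1044 against 1283 and a ratio of 0.840 (0.773 to 0.912), and Gadd45gip1 715 against 772 and 0.956. Dap3, a GTP-binding protein of the small subunit, had 2507 against 2064 counts and a ratio of 1.25 (1.18 to 1.33). Adding these 7 to their subunits changed the summed log2 ratio of the small subunit from -0.19 to -0.16.

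The ribosomal RNAs of the organelle, chosen after their values were seen, both had ratios above 1; their difference from the protein genes was not tested. The small ribosomal RNA (Rnr1) had 1935 compressed and 1203 control counts, a ratio of 1.66 (1.54 to 1.79). The large ribosomal RNA (Rnr2) had 33329 against 33862 counts, a ratio of 1.02 (1.00 to 1.03). How the libraries removed or enriched ribosomal RNA is not stated in the labels, and its part in these counts was not tested.

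Assembly and RNA modification factors of the mitochondrial ribosome had 11 of 27 intervals below 1 (40.7%) and 4 above (14.8%), against 30.8% and 28.1% of all mRNAs, with a median log2 ratio of -0.16. Ybey, an RNA-processing endoribonuclease, had 150 against 228 counts and a ratio of 0.679 (0.549 to 0.838). Fastkd2, an RNA-binding factor of large subunit assembly, had 855 against 1250 counts and a ratio of 0.706 (0.646 to 0.771). Tfb1m, which methylates the small ribosomal RNA, had 260 against 200 counts and a ratio of 1.34 (1.11 to 1.62). Ngrn, a large subunit assembly factor, had 770 against 632 and a ratio of 1.26 (1.13 to 1.40).

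Translation factors of mitochondria had 8 of 15 intervals below 1 (53.3%, against 30.8% of all mRNAs) and 1 above (6.67%, against 28.1%), with a median log2 ratio of -0.16. Taco1, an activator of the translation of COX1, had 344 against 496 counts and a ratio of 0.716 (0.622 to 0.823). The elongation factor Tsfm had 417 against 538 counts and a ratio of 0.800 (0.702 to 0.911). Gfm2, which splits ribosomes after termination, had 1089 against 1021 counts and a ratio of 1.10 (1.01 to 1.20), and the elongation factor Guf1 1113 against 1072 and 1.07.

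Mitochondrial aminoacyl-tRNA synthetases and the amidotransferase subunits listed with them had 9 of 20 intervals below 1 (45%, against 30.8% of all mRNAs) and 0 above (against 28.1%), with a median log2 ratio of -0.13. Qrsl1, a subunit of the amidotransferase that completes glutaminyl-tRNA, had 221 against 370 counts and a ratio of 0.616 (0.519 to 0.730). The methionyl-tRNA synthetase Mars2 had 387 against 606 counts and a ratio of 0.659 (0.579 to 0.750). The highest were Pars2 with 329 against 291 counts, a ratio of 1.17, and Fars2 with 432 against 403, a ratio of 1.11, and both intervals included 1.

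Genes for transcription, processing and upkeep of mitochondrial DNA had 6 of 17 intervals below 1 (35.3%) and 1 above (5.88%), with a median of -0.13. The share below 1 was near the 30.8% of all mRNAs, while the share above 1 was under their 28.1%. Elac2 and Trmt10c, which take part in cutting tRNAs out of the long transcripts, had ratios of 0.760 (0.704 to 0.821) and 0.775 (0.706 to 0.851). Hsd17b10, a further subunit of the same processing complex as Trmt10c, had 1834 against 1670 counts and a ratio of 1.13 (1.06 to 1.21). Mterf1a had 211 against 199 counts and a ratio of 1.09 with an interval that included 1.

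Nuclear regulators of mitochondrial genes had 6 of 10 intervals below 1 (60%, against 30.8% of all mRNAs) and 2 above (20%, against 28.1%), with a median of -0.19. Nrf1, whose motif was searched above, had 16 against 35 counts, a ratio of 0.472 (0.244 to 0.875), and was the 1 gene of these lists that passed the limit of 0.5. Its 35 control counts equal 1.40 CPM, close to the minimum. Myc, which drives ribosome production and growth, had 497 against 786 counts and a ratio of 0.652 (0.582 to 0.731). Gabpa, the DNA-binding subunit of GABP, had 3839 against 3314 counts and a ratio of 1.20 (1.14 to 1.25), and the nuclear receptor Esrra 360 against 309 and 1.20 (1.03 to 1.40).

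**Figure D3:**
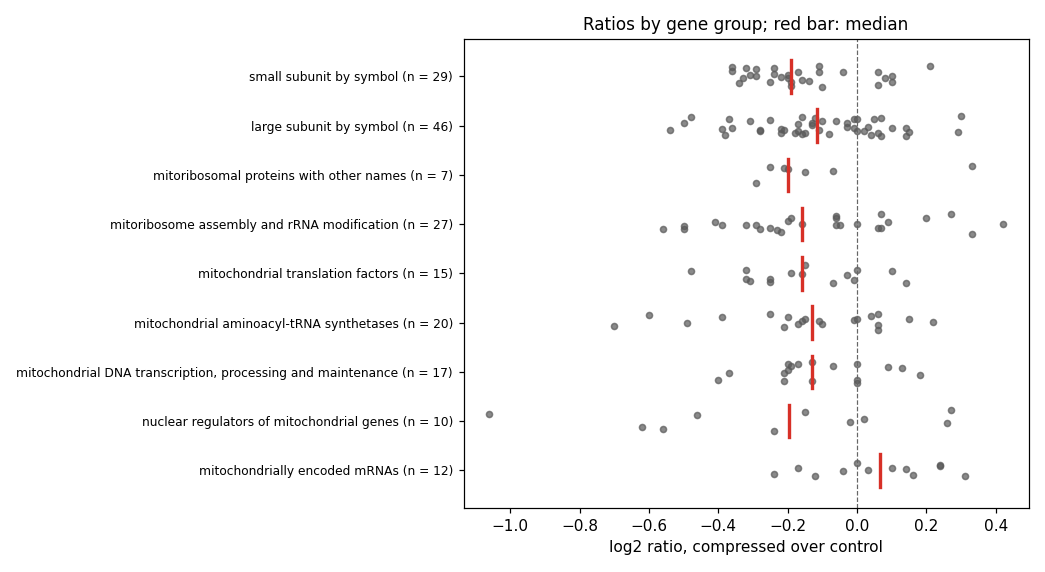
Log2 ratios of the compressed over the control library for each gene with a CPM of at least 1 (grey points) and the median of each group (red bars). The medians of the 8 groups of nuclear genes lie between -0.20 and -0.12, and that of the mitochondrially encoded mRNAs at 0.07.

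The mRNAs that mitochondrial ribosomes translate lay on both sides of 1. Of 12 mitochondrially encoded mRNAs above the minimum, 3 had intervals below 1 (25%) and 4 above (33.3%), against 30.8% and 28.1% of all mRNAs. Their median log2 ratio was 0.07. The 5 with intervals that included 1 (COX2, COX3, ATP6, ATP8 and ND4L) had at most 253 counts in a library, and the others at least 10740. The shares and the median thus rest in part on rows with few reads. The summed ratio over all 13 such mRNAs was 1.16 (1.16 to 1.17), with most counts from COX1. Their difference from the members was not tested. COX1, a subunit of cytochrome c oxidase, had 229424 against 190932 counts and a ratio of 1.24 (1.23 to 1.25), and ND5, of respiratory complex I, 27915 against 24324 and 1.18 (1.16 to 1.20). ND1 had 16401 against 19938 counts and a ratio of 0.849 (0.831 to 0.867), and ND2 10740 against 12490 and 0.887 (0.865 to 0.911). Nuclear copies of mitochondrial DNA share sequence with these genes, and the handling of reads with several alignments is not given, so their counts are uncertain.

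Cytoplasmic ribosomal protein genes are set beside the members as the other protein part of a ribosome. Of 78 above the minimum, 32 (41%) had intervals below 1 and 17 (21.8%) above, with a median log2 ratio of -0.05 and a summed ratio of 1.00 (0.998 to 1.01). The members had 49.3% below and 5.33% above and a summed ratio of 0.903 (0.893 to 0.912). The difference between the families was not tested, and many cytoplasmic genes have near-identical copies.

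**Figure D4:**
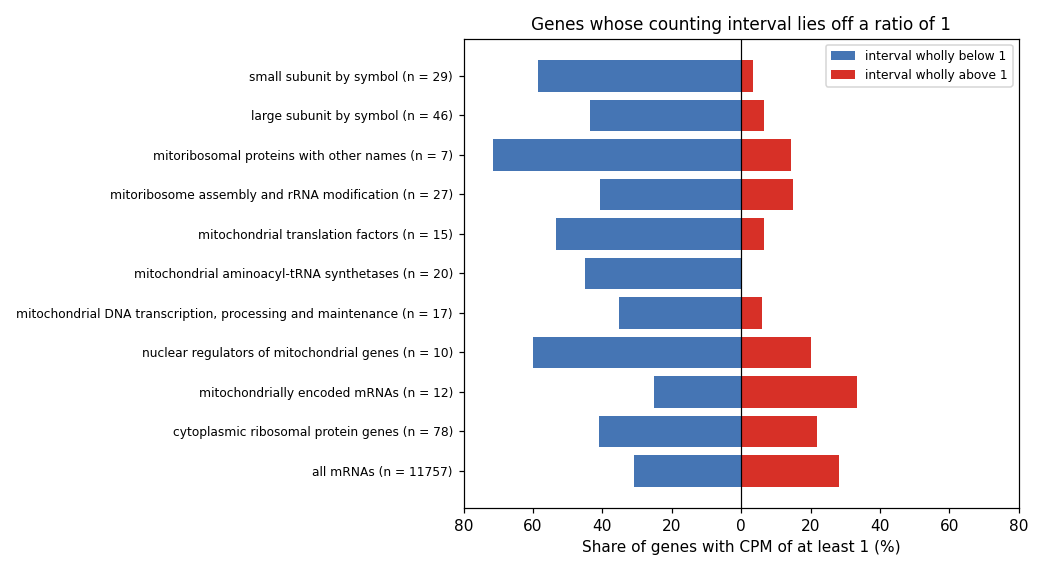
Share of genes with a CPM of at least 1 whose 95% counting interval lies wholly below a ratio of 1 (blue, to the left) or wholly above it (red, to the right), in each group with its number of genes. The small subunit bar reaches 58.6% to the left and 3.45% to the right, against 30.8% and 28.1% for all mRNAs.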

How the data were processed

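RNA sequencing read counts per gene were analysed for 1 compressed and 1 control library. Reads were aligned with HISAT2 to GRCm38, per the submitters' processing notes. The counting tool, annotation, strand setting and treatment of multiply aligned reads are not stated there. The values deposited by the authors are whole-number counts without normalization. From these, CPM and ratios were computed on TMM effective library sizes of the whole table (edgeR 4.0.16, R 4.3.3), with log2 ratios at a prior count of 0.5. Intervals of ratios are Clopper-Pearson intervals at 95%, conditional on the summed counts of a gene (scipy 1.17.1). They cover counting error only, as do floors. The quasi-likelihood test of edgeR needs replicates, so no p-value was computed. Genes were called at a CPM of at least 1, a 2-fold difference in either direction and an interval off 1. The calling and intervals were tested on data simulated with counting error only, so that test did not cover the spread between cultures.

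The members and lists were chosen with earlier results of these data known. A rule fixed which genes had to be named. In each subunit it took the 4 intervals farthest above and the 4 farthest below 1, or fewer where fewer excluded 1. It also took Mrps18a, Mrps18b, Mrps18c, Mrps30, Mrps36, Mrpl12, members under the CPM minimum, and the 2 highest and 2 lowest of each related list. The other members are named to account for all of them, and some of these are given with counts and intervals outside the rule, as are some neighbouring genes. Levels per coding length had been planned and were not computed, because no transcript or protein lengths were used here. Positions and promoter windows come from RefSeq on GRCm38.p6, which matched all 76 members by symbol, 67 of them with a promoter window. Alternatives were total-count scaling, DESeq2 1.42.0 size factors, upper-quartile factors, a loess fit (span 0.3), other CPM minimums, a prior count of 5, wider intervals, a fold limit of 1.5, and other sets of members.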

Additional observations from a re-analysis of the deposited data

How the results depend on the processing

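No paired analysis was possible because each group has 1 library, and for the same reason no library could be left out. Of 84 values recomputed under the alternatives, 71 kept their value within counting error, or within 1.5 times for counts, and 0 changed direction. Part of this was fixed in advance. Counts of members have no direction to change, and the numbers of called members were 0 under every setting. A library-wide scaling factor moves all ratios nearly alike, so it could hardly change the difference of subunit medians. The loess fit on mean abundance gave 8 members with intervals above 1 in place of 4, subunit medians of -0.16 (small) and -0.09 (large), and a summed log2 ratio of -0.09 for the large subunit. Without members that overlap another gene, 23 had intervals below 1, the small subunit median was -0.16, and the summed log2 ratios were -0.15 (small) and -0.14 (large). Leaving out the 3 members with most counts in each subunit gave -0.17 and -0.09, and adding the proteins with other names gave -0.16 for the small subunit. Intervals widened for a coefficient of variation of 0.1 left 3 members below 1 and 0 above, since the widening by construction exceeds most of these differences. The number of members below 1 was 34 to 38 under the 4 other scalings, and those scalings moved the median of all mRNAs to between -0.02 and 0.01. No member whose interval excluded 1 changed sign under any scaling or with a prior count of 5. Depth limited the rarer members most, since the interval of Mrps36 ran from 0.652 to 1.73.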
